A study of Rattus norvegicus with 4 samples.

Results

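The genes described here make, carry, bind and break down retinoids in the neonatal rat ovary cultured with or without anti-Müllerian hormone (AMH). They are 9 genes of 14217 with a probe set of their own on the array: Rbp4, Stra6, Rdh10, Aldh1a1, Aldh1a2, Aldh1a3, Crabp1, Crabp2 and Cyp26b1. Every probe set whose only gene symbol in the platform annotation was one of these was taken, which gave 15 probe sets. Whole ovaries of female rats were removed on postnatal day 4 and floated on filters for 10 days in a medium with albumin, transferrin, insulin and ascorbic acid, for which the labels list no retinoid. The control group had no further treatment, and the AMH group received 50 ng/mL AMH, a hormone of the TGF-beta family made by granulosa cells of growing follicles. Each of the 2 RNA samples per group was a pool of about 10 ovaries, described in the labels as independent, and was hybridised to 1 Affymetrix array. Strain is not stated in the labels. The series title gives the question as how AMH acts on transcripts while it holds primordial follicles back from becoming primary ones.

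Retinol travels in plasma bound to RBP4 and can enter cells through STRA6. Inside the cell, retinol dehydrogenases such as RDH10 oxidise it to retinal, retinal dehydrogenases of the ALDH1A family turn retinal into retinoic acid, and CYP26 enzymes break retinoic acid down. CRABP proteins bind retinoic acid in the cytoplasm, and the acid acts through nuclear receptors of the RAR and RXR families. In the fetal ovary retinoic acid is best known for its part in the entry of germ cells into meiosis.

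Levels are deposited intensities on a linear scale. A change is the mean of the AMH arrays minus that of the control arrays after log2(intensity + 16), with its standard error from limma after the ± sign and n = 2 arrays in each group. A probe set was called when its Benjamini-Hochberg adjusted p over 18625 tested probe sets was under 0.05. Over all tested probe sets 21.5% were called, 8.67% higher and 12.8% lower with AMH. For GAPDH, the 3′ control probe set was 1.17 to 1.27 times as bright as the 5′ one in control. With AMH it was 6.37 to 6.56 times as bright. For beta-actin the same ratio was 3.17 and 4.60 in control and 10.7 and 14.4 with AMH. The arrays of the groups thus also differed in a measure of RNA integrity, and its part in the changes below was not tested. The chip identifiers end in 1 string for the control arrays and another for the AMH arrays. The labels do not say what the string stands for, and whatever it marks cannot be told apart from treatment. The tissue was whole ovary, in which fewer cells of a type and less RNA per cell cannot be told apart. Markers of oocytes, granulosa cells and stroma were all measured. For these, 8 of 12, 11 of 12 and 10 of 10 listed genes passed the filter on dim probe sets. Of 6 listed markers of theca and steroidogenic cells 3 passed it (Star, Hsd3b1 and Lhcgr). The others, Cyp17a1, Cyp11a1 and Insl3, did not pass it, at 1.3 to 35.3 on all arrays.

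Of the 9 genes, Aldh1a1 and Aldh1a3 rose with AMH, and Rbp4, Stra6, Rdh10, Aldh1a2, Crabp2 and Cyp26b1 were tested and not called. Crabp1 was too dim to be tested. By probe set, 11 of 15 passed the filter, and 2 of these 11 were called higher and 0 lower (limma; at an unadjusted p under 0.05, 2 were higher and 1 was lower, a Stra6 probe set). The called share was 18.2%, near that of all tested probe sets (21.5%), so these genes were not called more often than the rest of the array. Both AMH arrays lay above both control arrays for 4 of the 11 and below them for 2, and the groups overlapped for 5, against 32.2% above and 31.2% below among all tested probe sets. With median centring and with quantile normalization Aldh1a1 and Aldh1a3 were again the 2 called. With scaling to the hybridization controls the calls were others. Aldh1a1, Aldh1a3, Rbp4, Crabp2, the tested Cyp26b1 probe set, the brightest Stra6 probe set and 1385476_x_at of Stra6 kept their sign in every alternative fit that tested them. The other tested probe sets changed sign in some of these fits. With arrays scaled to the hybridization controls, material added after RNA extraction, which moved the median change of all tested probe sets from 0.025 to -0.519, none of the 11 was called higher and 3 were called lower (Rbp4 and a pair of Stra6 probe sets).

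**Figure D1:**
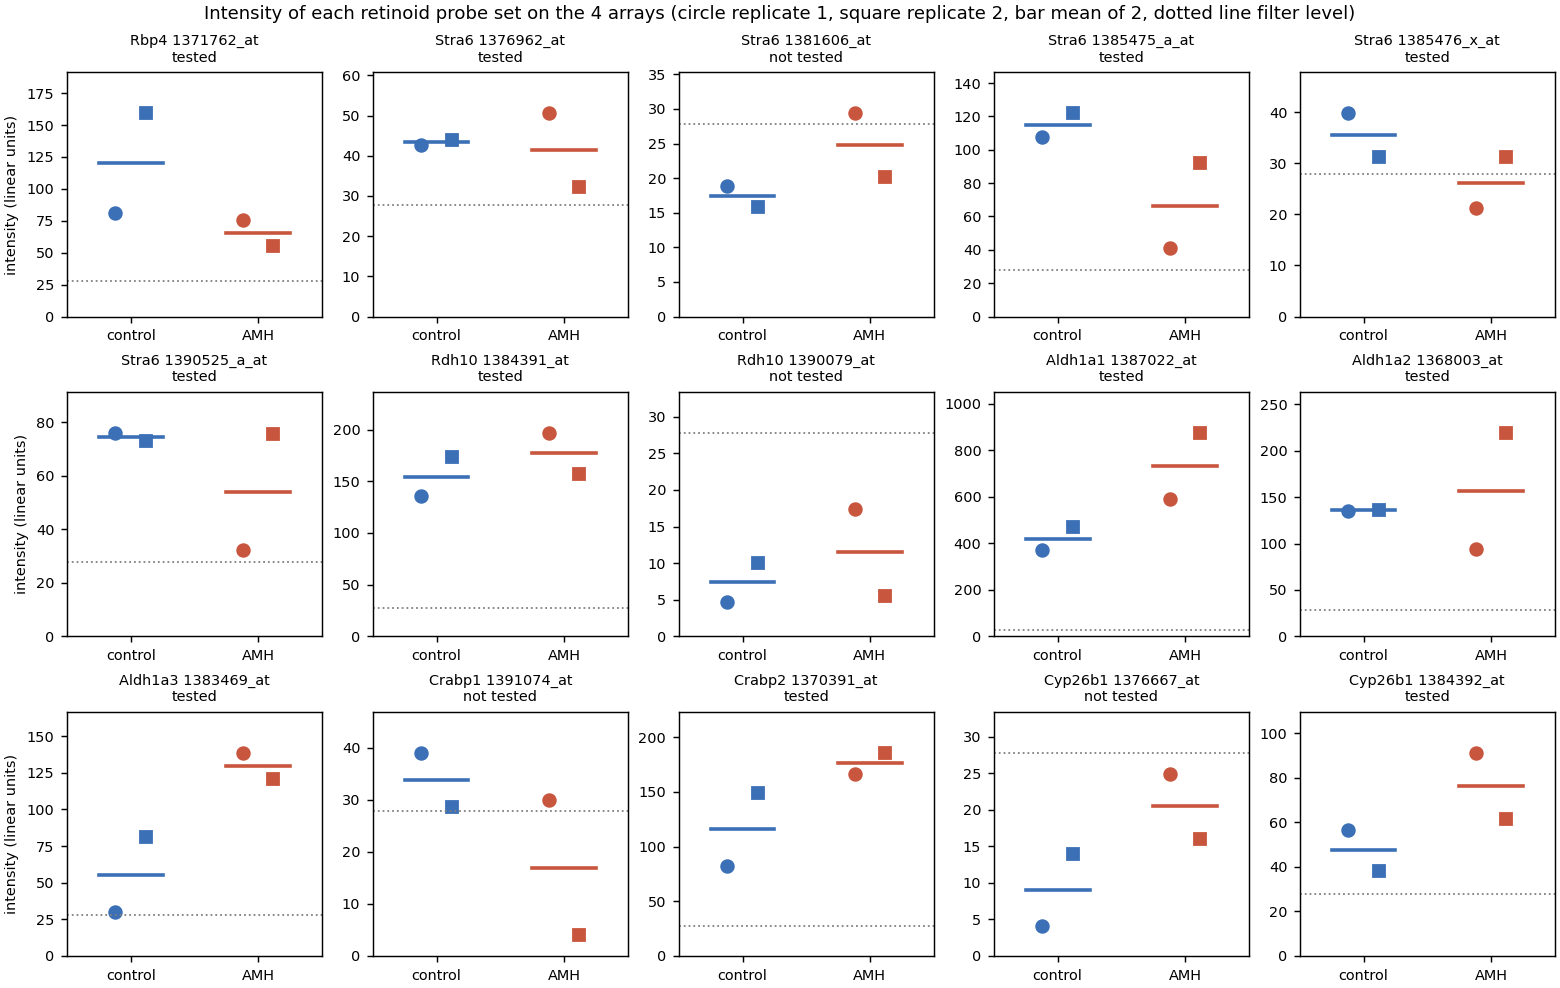
Intensity of the 15 probe sets on the 4 arrays, on linear axes that start at 0, with control in blue and AMH in red, replicate 1 as a circle, replicate 2 as a square and the mean of 2 as a bar. The dotted line marks an intensity of 27.8, where a probe set of constant level would meet the filter. Aldh1a1 and Aldh1a3 are higher on both AMH arrays. Aldh1a2, Crabp1, the dim Rdh10 probe set and both Stra6 probe sets ending in a_at have AMH arrays more than 2-fold apart.

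The retinal dehydrogenases are the enzymes that commit retinal to retinoic acid. Aldh1a1 read 371 and 468.3 in control and 591.4 and 875.2 with AMH, so that the groups did not overlap and the higher AMH array was replicate 2. It rose by 0.77 ± 0.21 (1.70-fold on this scale, 95% interval 0.27 to 1.26, limma adjusted p = 0.038). Aldh1a3 read 29.9 and 80.9 in control and 138.8 and 120.9 with AMH. Here the AMH arrays lay close together, and the control arrays were 2.71-fold apart. It rose by 1.13 ± 0.33 (2.18-fold, 95% interval 0.36 to 1.89, limma adjusted p = 0.0458). Its lower control array was near the filter level of 27.8, and the size of its change therefore depends on the constant added: with 64 added it was 0.73.

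Aldh1a2, the third enzyme of the family, read 135.4 and 136.5 in control and 93.7 and 219.4 with AMH. The AMH arrays thus lay on either side of control values that were nearly equal. Its change was 0.08 ± 0.32 (95% interval -0.66 to 0.82, limma adjusted p = 0.886). The interval holds the change of Aldh1a1 but not that of Aldh1a3, and the differences between the enzymes were not tested. Without AMH replicate 1 its change was 0.63 and was called (adjusted p = 0.0395), and without AMH replicate 2 it was -0.47 and was not.

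Both rises were close to the threshold. Aldh1a1 was called in 8 of 14 alternatives and Aldh1a3 in 7 of 14, each with the same sign in all 14, and their adjusted p ran from 0.00289 to 0.689 and from 0.00393 to 0.294. Leaving out control replicate 1 ended both calls (0.60, adjusted p = 0.221 for Aldh1a1, and 0.59, adjusted p = 0.294 for Aldh1a3). Leaving out AMH replicate 2 ended that of Aldh1a1 (0.49, adjusted p = 0.0673), and leaving out AMH replicate 1 ended that of Aldh1a3 (1.04, adjusted p = 0.0754). Without control replicate 2 the change of Aldh1a3 was 1.67 (adjusted p = 0.00393).

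**Figure D2:**
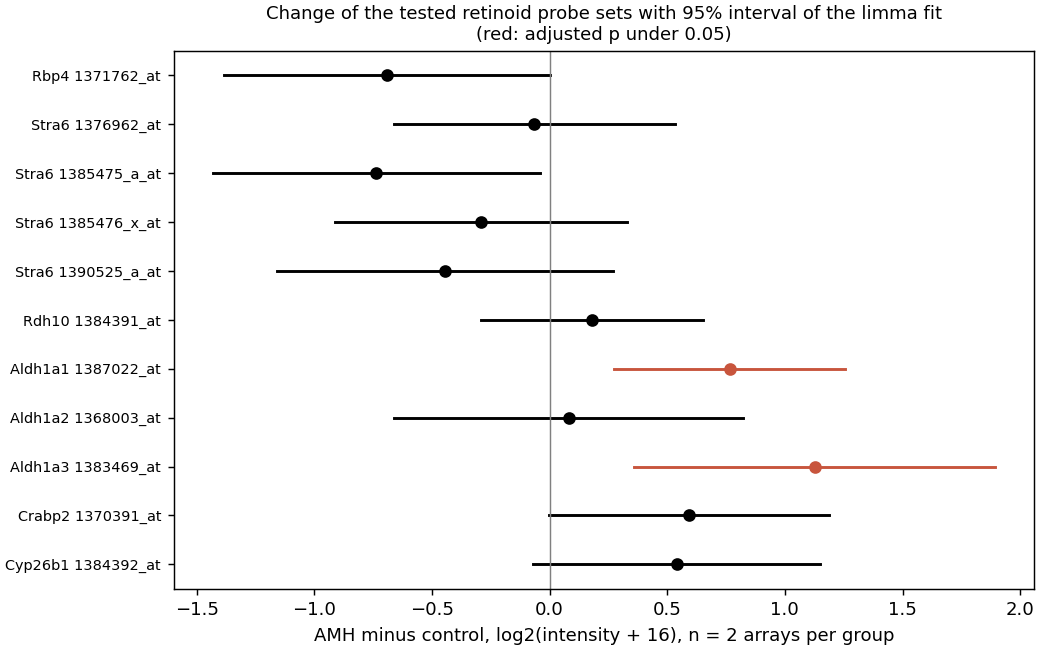
Change of the 11 tested probe sets, AMH minus control in log2(intensity + 16), with 95% intervals from limma (n = 2 per group) and adjusted p under 0.05 in red. The red points are Aldh1a1 at 0.77 and Aldh1a3 at 1.13, and the intervals of the other probe sets are mostly wider than 1 log2 unit.

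The promoters of the 3 Aldh1a genes are shown because 2 of these 3 enzymes carry the calls. The stretches below are the 120 bases before each transcription start in RefSeq's GRCr8 assembly, 5′ to 3′ on the strand of the gene. Capitals mark CCAAT, a common promoter element, and the half-site of nuclear receptors such as RAR, taken here as AGGTCA or in its place AGTTCA or likewise GGGTCA or else GGTTCA, on either strand. Aldh1a1 lies at chr1:227537500-227537619 on the plus strand, Aldh1a2 at chr8:80758521-80758640 on the plus strand and Aldh1a3 at chr1:129427644-129427763 on the minus strand.
Aldh1a1: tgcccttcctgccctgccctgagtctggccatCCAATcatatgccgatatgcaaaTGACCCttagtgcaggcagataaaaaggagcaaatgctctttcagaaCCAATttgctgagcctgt
Aldh1a2: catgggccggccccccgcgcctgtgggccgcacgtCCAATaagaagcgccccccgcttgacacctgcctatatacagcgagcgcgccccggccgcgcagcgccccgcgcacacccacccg
Aldh1a3: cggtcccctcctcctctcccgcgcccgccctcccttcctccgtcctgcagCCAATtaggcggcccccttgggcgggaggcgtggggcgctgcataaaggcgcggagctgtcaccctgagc

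Promoter windows of 300 bases (250 before and 50 after the start) were listed for 8 of the 9 genes, Rdh10 being the other one. CCAAT was present in 3 of these 8 windows, those of the Aldh1a genes, starting 88 and 18 bases before the start in Aldh1a1, 85 in Aldh1a2 and 70 in Aldh1a3, and in 37.5% of all 33469 windows. The Aldh1a1 window had 48.3% G and C and 1 CpG, and the windows of Aldh1a2 and Aldh1a3 had 76% and 74.3% with 47 and 31 CpG. The called genes Aldh1a1 and Aldh1a3 thus differ in base composition, and Aldh1a3 is close to Aldh1a2, which was not called. A half-site was found in 2 of the 8 windows (Aldh1a1, 65 bases before the start on the minus strand, and Stra6, 132 bases before it), against 44.4% of all windows. Direct repeats of 2 half-sites spaced by 1, 2 or 5 bases, the usual retinoic acid response elements, were in none of the 8 windows and in 0.233%, 0.17% and 0.382% of all. Among 53 windows of the wider retinoid list the spacing of 5 was found in 2, Cyp26a1 and Rarb, both textbook targets of retinoic acid.

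The uptake genes Rbp4 and Stra6 were not called. Rbp4, the plasma carrier of retinol, read 80.8 and 159.4 in control and 75.7 and 55.1 with AMH, so both AMH arrays were below both control arrays. One control array was close to the AMH arrays and the other was 1.97-fold higher. The change was -0.69 ± 0.30 (95% interval -1.38 to 0.00, limma adjusted p = 0.14). Without control replicate 2 it was -0.26 (adjusted p = 0.702), and with scaling to the hybridization controls Rbp4 was called lower (-1.23, adjusted p = 0.00262).

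Control replicate 2 also stood apart in markers of adipocytes, cells known to secrete RBP4. The summed intensity of the 4 tested adipocyte markers of 5 listed (Adipoq, Plin1, Fabp4 and Cfd) was 97.8 on control replicate 1 and 1025 on control replicate 2, and 212.7 and 396 with AMH. Fabp4, a lipid carrier of fat cells, read 50.1 and 783.1 on the control arrays, and Cfd, the secreted protease adipsin, read 4.1 and 109.5. On the same arrays Adipoq read 17.5 and 79.9, and Plin1 read 26.1 and 52.5. Lep, the listed marker below the filter, went the other way (9.4 and 2). Of the genes described here, Rbp4, Aldh1a3 and Crabp2 were 1.97-, 2.71- and 1.81-fold higher on control replicate 2 than on control replicate 1. Aldh1a1 and the tested Rdh10 probe set were 1.26- and 1.28-fold higher on it. The dim probe sets of Cyp26b1 and Rdh10 were 3.39- and 2.13-fold higher. The tested Cyp26b1 probe set and Crabp1 were 1.49- and 1.37-fold lower on it, Aldh1a2 was nearly equal, and the Stra6 probe sets went both ways. Over all tested probe sets the median size of the difference between control arrays was 0.17 log2. The marker sum was also higher on AMH replicate 2 than on AMH replicate 1. Rbp4 (75.7 and 55.1) and Aldh1a3 (138.8 and 120.9) were lower on AMH replicate 2, and Crabp2 (166.7 and 186) was higher. The part of the adipocyte markers in the results was not tested. Without control replicate 2 the changes were -0.26 for Rbp4, 1.67 for Aldh1a3 and 0.97 for Crabp2.

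Stra6, the receptor for retinol-bound RBP4, had 5 probe sets, and they did not give one answer. The brightest, 1385475_a_at, read 107.9 and 122 in control and 41.1 and 91.9 with AMH, with both AMH arrays lower. Its change was -0.74 ± 0.30 (95% interval -1.43 to -0.04), with an unadjusted p of 0.0402 and a limma adjusted p of 0.119. The probe set 1390525_a_at read 76 and 73 in control and 32.4 and 75.4 with AMH, so only AMH replicate 1 was low (-0.44 ± 0.31). The x_at probe set 1385476_x_at was derived from the same accession as the brightest one and read 39.8 and 31.2, then 21.2 and 31.2 with AMH (-0.29 ± 0.27). The probe set 1376962_at read 42.7 and 43.9, then 50.6 and 32.3 with AMH (-0.06 ± 0.26), and the dim 1381606_at was higher with AMH (18.8 and 15.9, then 29.4 and 20.1). Probe sets whose names end in a_at or x_at can share probes with other transcripts of the gene or with other genes, and these 4 tested probe sets are not independent measurements. Without AMH replicate 2 both a_at probe sets were called lower (-1.20, adjusted p = 0.00512, and -0.90, adjusted p = 0.0265), and without AMH replicate 1 neither was (-0.28, adjusted p = 0.382, and 0.01, adjusted p = 0.971).

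Aldh1a2 and 3 of the 5 Stra6 probe sets were lower on AMH replicate 1 than on AMH replicate 2, and the other Stra6 probe sets, 1376962_at and 1381606_at, were higher on it. The summed level of surface epithelium and mesothelium markers was also lower on AMH replicate 1. The 9 tested markers of 11 listed summed to 4589 and 3864 in control and to 2502 and 4366 with AMH, and 1 was called higher (Upk1b) and 1 lower (Cdh1). Of the 9, 7 were lower on AMH replicate 1 than on AMH replicate 2, from Krt19 (895.9 and 1977) and Lhx9 (210 and 499.2) to Msln with close values (204.7 and 235.3), and Upk1b (376.6 and 290.4) and Cdh1 (104.9 and 85.4) were higher on it. The stroma markers showed the gap as well, with 8 of 10 lower on AMH replicate 1, among them Lum (892.6 and 2676.5). None of the 9 surface epithelium and mesothelium markers was listed at 0. Markers of smooth muscle (5 of 5), macrophages (4 of 5) and adipocytes (3 of 4) were also mostly lower on AMH replicate 1. Those of endothelium (3 of 5), granulosa cells (6 of 11) and red blood cells (1 of 2) were split. Fewer were lower on it for oocytes (2 of 8) and theca and steroidogenic cells (0 of 3). Over all tested probe sets the median size of the difference between AMH arrays was 0.26 log2. The part of any of these cell types in the Aldh1a2 and Stra6 values was not tested.

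Rdh10, which makes retinal from retinol, read 135.4 and 173.9 in control and 197 and 157.4 with AMH, and the groups overlapped. The change was 0.18 ± 0.21 (95% interval -0.29 to 0.65, limma adjusted p = 0.566). Its dim probe set 1390079_at (4.7 and 10, then 17.4 and 5.5) lay below the filter level on every array.

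The binding and breakdown genes were not called either. Crabp2, a carrier that delivers retinoic acid to its nuclear receptors, read 82.4 and 148.9 in control and 166.7 and 186 with AMH. Both AMH arrays were above both control arrays, and the control arrays were further apart than the AMH arrays. The change was 0.59 ± 0.26 (95% interval 0.00 to 1.19, limma adjusted p = 0.138), and it was called in none of its alternatives. Crabp1, the other carrier, read 39.1 and 28.6 in control and 29.9 and 4.1 with AMH and was not tested. Its AMH arrays were 7.29-fold apart, and 1 of them was within the control range. Cyp26b1, which clears retinoic acid, read 56.7 and 38.1 in control and 91.4 and 61.5 with AMH, again with no overlap (0.54 ± 0.27, 95% interval -0.07 to 1.15, limma adjusted p = 0.181). Its dim probe set 1376667_at was also higher on both AMH arrays (4.1 and 13.9, then 24.9 and 16), below the filter level throughout. With scaling to the hybridization controls the changes of Crabp2 and Cyp26b1 were 0.03 and 0.03.

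The wider retinoid list held 73 genes, of which 59 had a probe set and 41 were tested. At their brightest probe sets 4 were higher (Aldh1a1, Aldh1a3, Akr1b8 and Rai14), 0 lower and 37 not called (limma; at an unadjusted p under 0.05, 6 were higher and 2 lower), against 22.9% called among all 10622 tested genes, 11.0% higher and 11.9% lower. The median change was 0.15 over the list and 0.36 over the 8 tested genes of the main set, beside 0.07 over all tested genes. Over the 11 tested probe sets of the main set it was 0.08, beside 0.025 over all tested probe sets. With scaling to the hybridization controls 0 genes of the list were higher and 10 lower. The medians were then -0.40 for the list and -0.49 for the 11 probe sets. Akr1b8, an aldo-keto reductase listed with the retinal reductases, rose by 0.91 ± 0.20 (281.3 and 406.2, then 684.7 and 613.8 with AMH; limma adjusted p = 0.0154), a call lost without control replicate 1. Rai14, an actin-associated gene named for its induction by retinoic acid, rose by 0.62 ± 0.16 at its brighter probe set (231.1 and 212, then 343.3 and 356.7; limma adjusted p = 0.0295) and gave 0.13 ± 0.38 at its dimmer one. Its call was lost without either control array.

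By role, retinoic acid synthesis gave 2 calls of 3 tested genes, the oxidoreductases 1 of 10 and the known targets 1 of 12. Among all tested genes 22.9% were called, 11.0% of them all being higher and 11.9% lower. The 2 synthesis calls are those of Aldh1a1 and Aldh1a3 given above, and differences between roles were not tested. Uptake and transport gave 0 of 4, storage and release 0 of 5, binding 0 of 2, breakdown 0 of 1 and receptors 0 of 4. At the brightest probe sets Lpl, the lipoprotein lipase, had the largest statistic in size among the storage genes (0.97 ± 0.46, limma adjusted p = 0.164). It read 128 and 468.8 in control and 489 and 514.2 with AMH, and its low array was control replicate 1. The adipocyte marker sums were 97.8 and 1025 in control and 212.7 and 396 with AMH, and their part in the Lpl values was not tested. Without control replicate 2 the change of Lpl was 1.85. Scarb1, a receptor for lipoproteins and carotenoids, gave -0.44 ± 0.24 at its brighter probe set (125.5 and 144.5 in control, 120.2 and 74.3 with AMH). At the other one it gave -1.43 ± 0.21 (131.7 and 118.8, then 39.4 and 33.8, limma adjusted p = 0.0039). Only this dimmer probe set was called. Brightness was ranked over all 4 arrays, so a fall with AMH lowers the rank of a probe set. The count of 0 of 5 for storage rests on the brighter Scarb1 probe set. Rara, the retinoic acid receptor alpha, read 108.8 and 94.9 in control and 89.2 and 66.4 with AMH (-0.34 ± 0.22, limma adjusted p = 0.306). Cyp26a1, the other CYP26 gene with a probe set, was at 5.2 and 2.9 in control and 15.2 and 14.2 with AMH, below the filter level on every array.

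**Figure D3:**
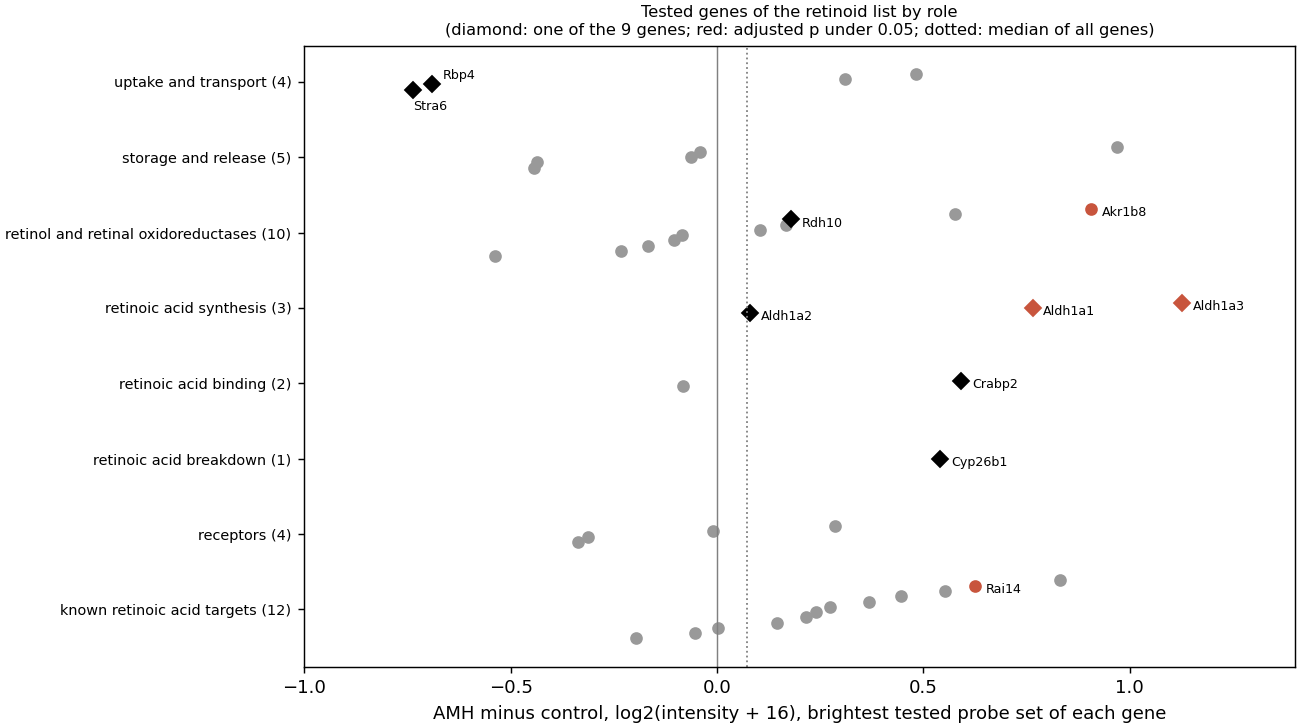
Change of the 41 tested genes of the retinoid list at their brightest probe set, AMH minus control in log2(intensity + 16), by role with the number tested in brackets. Diamonds are the main set, red is adjusted p under 0.05 and the dotted line is the median of all tested genes at 0.07. Retinoic acid synthesis holds 2 of the 4 red points, and no red point lies below 0.

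Aldh1a1 is also expressed in steroid-making cells, and markers of these and other ovarian cell types were read on the same arrays, where 22.9% of all tested genes were called. The 3 tested theca and steroidogenic markers (Star, Hsd3b1 and Lhcgr, of 6 listed) summed to 387.9 and 287 in control and to 2282 and 438.9 with AMH, with none called. Most of their sum on AMH replicate 1 came from Hsd3b1, which read 282.9 and 166.2 in control and 1840.3 and 311.8 with AMH. The 11 granulosa markers summed to 3904 and 3298 in control and to 6754 and 5083 with AMH (2 higher, 0 lower). The 10 stroma markers summed to 21969 and 21213 in control and to 14732 and 19886 with AMH (1 higher, 2 lower, median change -0.01), and the 8 oocyte markers to 10450 and 9788 and then 7375 and 7744 (0 higher, 5 lower). Markers of endothelium (0 of 5 called), macrophages (1 of 5, higher), smooth muscle (2 of 5, lower) and red blood cells (1 of 2, lower) were measured too. No tested marker was listed at 0, the lowest intensity in the table being 0.1, and the part of any of these cells in the retinoid results was not tested.

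**Figure D4:**
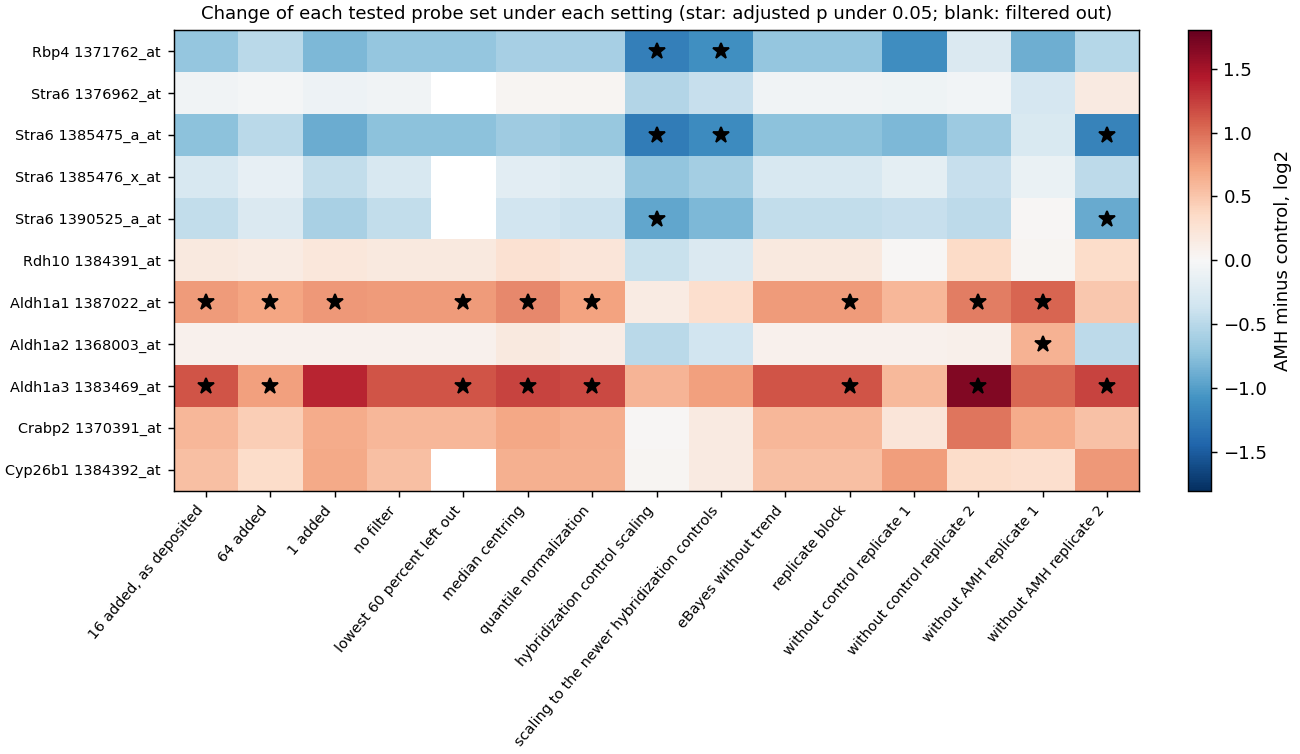
Change of the 11 tested probe sets (rows) under each processing setting (columns), AMH minus control in log2, from blue (lower) to red (higher), with a star at an adjusted p under 0.05 and a blank where the probe set was filtered out. Stars for Aldh1a1 and Aldh1a3 are missing without control replicate 1, without a filter, without the intensity trend and with either hybridization control scaling, where Rbp4 and Stra6 have stars instead.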

How the data were processed

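RNA of 2 control and 2 AMH pools was labelled with biotin and hybridised to Affymetrix arrays with 1 colour, as the labels' protocols state. The authors deposited 1 table of linear intensities for 31099 probe sets. How they were summarised is not given in the sources. The mean trimmed by 2 percent at each end was 125.03 on all arrays, which shows a scaling to 1 target. The table holds no detection calls, and the number of arrays limits the precision.

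Intensities were turned into log2(intensity + 16), and 57 control probe sets and the dimmest 40 percent of the rest (by mean log2) were left out. The groups were compared with limma 3.58.1 under R 4.3.3 (lmFit, eBayes with an intensity trend, two-sided), in a script checked on simulated data. The fit had 2 residual and 6.33 prior degrees of freedom. An exact permutation of the arrays could not go below p = 0.333, so none was used. The members and lists were chosen with earlier results of these data known. Genes came from the platform annotation (20832 probe sets with 1 symbol, 436 with several and 9831 with none listed). A gene of the wider list stands by its brightest tested probe set. The text names all 15 probe sets, called genes of the wider list and, for roles without a call, the gene with the largest statistic. Scarb1, Cyp26a1 and single marker genes were named after their values were seen. Promoters came from RefSeq (GRCr8), matched by symbol.

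Alternatives were other added constants, filters, scalings and variance models, a replicate block and leaving out each array. Replicate numbers did not pair the arrays by label.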

Additional observations from a re-analysis of the deposited data

How the results depend on the processing

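Over all tested probe sets 3999 were called (1614 higher and 2385 lower, 59.6% lower). Scaling to the hybridization controls gave 7137 (98.4% lower), scaling to the array's newer hybridization controls, an alternative chosen after seeing the data, gave 5076 (97.1% lower), and median centring gave 3875 (47.9% lower). Leaving out 1 array gave 1381 to 5131. Of the 11 tested probe sets of the 9 genes, 2 were called, against 1 with 1 added, 0 with no filter (15 tested), 0 with eBayes without a trend and 0 to 3 when 1 array was left out. The 3 called with hybridization control scaling and the 2 called with the newer controls were all lower. With no filter the adjusted p was 0.0694 for Aldh1a1 and 0.0952 for Aldh1a3, without the trend 0.0765 and 0.0669, with hybridization control scaling 0.689 and 0.119 (changes 0.15 and 0.61), and with 1 added that of Aldh1a3 was 0.0543. Of the wider list 4 genes were called, against 2 with no filter, 10 with hybridization control scaling, 6 with the newer controls, 1 with eBayes without a trend, 2 with the mean of a gene's probe sets (Akr1b8 higher and Scarb1 lower, with 0.054 for Aldh1a1 and 0.0628 for Aldh1a3) and 0 to 9 when 1 array was left out. Fits without 1 array take their residual spread from the other group alone.

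With the replicate number as a block 3566 probe sets were called, and Aldh1a1 and Aldh1a3 were still the 2 called among the 11 (adjusted p = 0.0209 and 0.0391). The deviations of same-numbered arrays from their group means had a correlation of -0.0008 across probe sets, so the numbers were not taken as pairs. With 2 arrays per group and no detection calls, changes near the filter level were not resolved.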
